A study of Lissachatina fulica and Mizuhopecten yessoensis with 12 samples.

Results

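The genes described here are a part of the patterning and lineage regulators listed in the heart tables of a scallop and a land snail. They include Sox, Runx and forkhead factors. Homeobox or paired-domain factors come from the HOX, PAX, LIM, NKX, sine oculis (SIX2, SIX4), DLX, MSX and POU groups. Zinc finger factors come from the SALL, ZIC, SNAI, PRDM and EGR groups. The rest are basic helix-loop-helix, ETS and nuclear receptor factors, and the cofactor EYA. The rows were picked with a search pattern over the gene symbols. No expression value enters the pattern, but it was chosen with earlier results of these data known. The pattern leaves out several groups well known from hearts, among them the T-box, Iroquois, HAND, GATA and Hairy-type factors, so the counts below do not cover all such regulators in the tables. The pattern matched 50 of the 6081 rows of both tables, 29 of 4195 in the scallop and 21 of 1886 in the snail. Of these, 42 name a transcription factor or cofactor (25 scallop, 17 snail). The other 8 share only letters with one: PAXIP1, LMO7, TWISTNB and RARS2 in the scallop, and FOXRED1, FOXRED2 and 2 rows of LMO7 in the snail. They are reported as what they are, after the factors. All counts below cover all 50 rows, and 3 snail rows are counted without further description.

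The study asked how the chambers of molluscan hearts differ, and profiled atria and ventricles of adult wild-type (genotype WT) hearts by RNA sequencing after poly-T selection of mRNA. The 4 groups were the atrium and the ventricle of the scallop Mizuhopecten yessoensis and the atrium and the ventricle of the giant African snail Lissachatina fulica, with 3 libraries each and 12 in all. The labels name no treatment or mutation, and title the scallop samples shell. The labels do not say whether libraries came from separate animals or from pooled ones. Nor do they say whether an atrium and a ventricle of the same number came from the same heart. Each p therefore sets a chamber difference against the variation among these libraries. That variation may be partly technical and need not be variation between animals.

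Every value below is a normalized count, the number of reads on a gene divided by the size factor of its library, and values stand in the order of libraries 1, 2 and 3 of a chamber. No gene length entered them, so levels are compared between chambers and never between genes. Both tables list only rows that the authors had already selected as different between chambers, with an unadjusted p under 0.05 and a change of at least 2-fold, so each adjusted p below repeats a selection and is not independent evidence of a difference. A factor missing from a table may be expressed or not. Each library holds many cell types, so fewer cells of a type and less RNA per cell cannot be told apart. The reads on listed genes ran between 10120508 and 21526834 per scallop library and between 606309 and 1165104 per snail library, so low snail genes rest on few reads. Several symbols stand on more than 1 row, namely HOXB7, SALL1 and ZIC2 in the scallop and EYA1 and LMO7 in the snail. How strand and reads shared by near-identical copies were handled is not given in the sources used here. The values of such rows are therefore uncertain.

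Developmental transcription factors bind DNA through a conserved domain and set which genes a cell lineage can use. HOX factors give cells their place along the body axis, PAX, LIM, sine oculis, DLX and NKX factors define organ fields and neuron types, forkhead FOXF and FOXC and the SNAI and TWIST factors are best known from mesoderm and mesenchyme, and RUNX, TAL1, ETS and SoxE factors from blood, vessel, nerve and connective tissue lineages. In vertebrate hearts a set of homeobox, T-box and nuclear receptor genes separates atrial from ventricular muscle. Molluscan hearts also hold an outer epithelium, hemocytes (blood cells) and nerve endings, and in many bivalves the atrial wall carries podocytes that filter hemolymph. Gene symbols here are annotation names carried over from other animals, and the roles given are those known there, mostly in mice.

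In the scallop most listed factors were higher in atria. Of the 25 factor rows, 19 had every atrium above every ventricle, 4 had every ventricle above every atrium, and PAX1 and ERG overlapped. Over all 4195 listed rows, 42.3% had every atrium above every ventricle and 45.1% had every ventricle above. A row was called with an adjusted p under 0.05 and a change of at least 2-fold, among rows whose normalized count averaged 10 or more in the 6 libraries of the species. Of 22 factor rows that passed this filter, 17 were called higher in atria, 3 were called higher in ventricles, and HOXB7 Miz0063270.1 and ERG were not called. The background over the 3927 tested rows was 42% called higher in atria and 45.6% higher in ventricles. With all 29 matched rows, 26 were tested, of which 19 were called higher in atria and 4 higher in ventricles. PAX1, MSX2 and POU4F2 lay below the filter, and with no filter 19 factors were called higher in atria and 3 higher in ventricles, against 44.2% and 42.9% of all rows. The atrial mean was the higher on 22 of the 29 matched rows, against 48.1% of all rows. On the recovered reads edgeR called 19 of the 26 tested rows higher in atria and 4 higher in ventricles, against 35.4% and 48.8% of all tested rows, and DESeq2 called 19 and 7, against 41.2% and 52.2%. In the authors' deposited table, 19 of the 29 matched rows were higher in atria and 4 higher in ventricles at an adjusted p under 0.05, against 28.4% and 40% of all rows.

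The split of calls over the whole scallop table depends on the scaling. In both species the further scalings were estimated from listed rows only, all of them selected as different between chambers. The ribosomal rows are among these, so none of these scalings was anchored on genes known to be unchanged. Atrial calls made up 47.9% of all calls on the values as deposited, 74.4% after a further TMM scaling, 46.3% after quantile normalization and 96.7% after rescaling to ribosomal protein genes. The matched rows called higher in atria and in ventricles numbered 19 and 4 as deposited, 19 and 3 with TMM, 13 and 6 with quantile normalization and 19 and 2 with ribosomal rescaling. The median log2 fold change, always atrium over ventricle, was 3.74 over the 22 tested factors and -1.01 over all tested rows. Setting the 5 tested factors that had no ventricular read at their lower bounds could not move the factors' median. These 5 lay above it both as fitted and at their bounds. The factors' median did depend on how low counts were handled. It was 2.35 with a pseudocount of 5 and 3.76 with a pseudocount of 0.5. It was 3.16 with no filter and 1.97 over the 16 factors with a mean of at least 50. The median of all tested rows stayed negative in each of these settings. The medians of factors and of all rows were 4.17 and -0.52 with TMM, 1.90 and -0.36 with quantile normalization, and 4.70 and 0.21 with ribosomal rescaling. The factors' median stood above that of the table by 4.75 as deposited and by 4.69, 2.26 and 4.48 under these 3 scalings.

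Several scallop factors were not detected in ventricles. No read was found in any ventricle for 8 of the 25 rows, against 4.58% of all listed rows, and no factor lacked reads in all 3 atria, against 0.405% of rows. The 8 were FOXC1, PAX1, MSX2, POU4F2, SNAI2, ZIC1 and both ZIC2 rows. A count of 0 allows up to 3 reads over the 3 ventricles, and folds against such a group are given below as lower bounds at that floor. Bounds and read ratios cover counting error only.

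**Figure D1:**
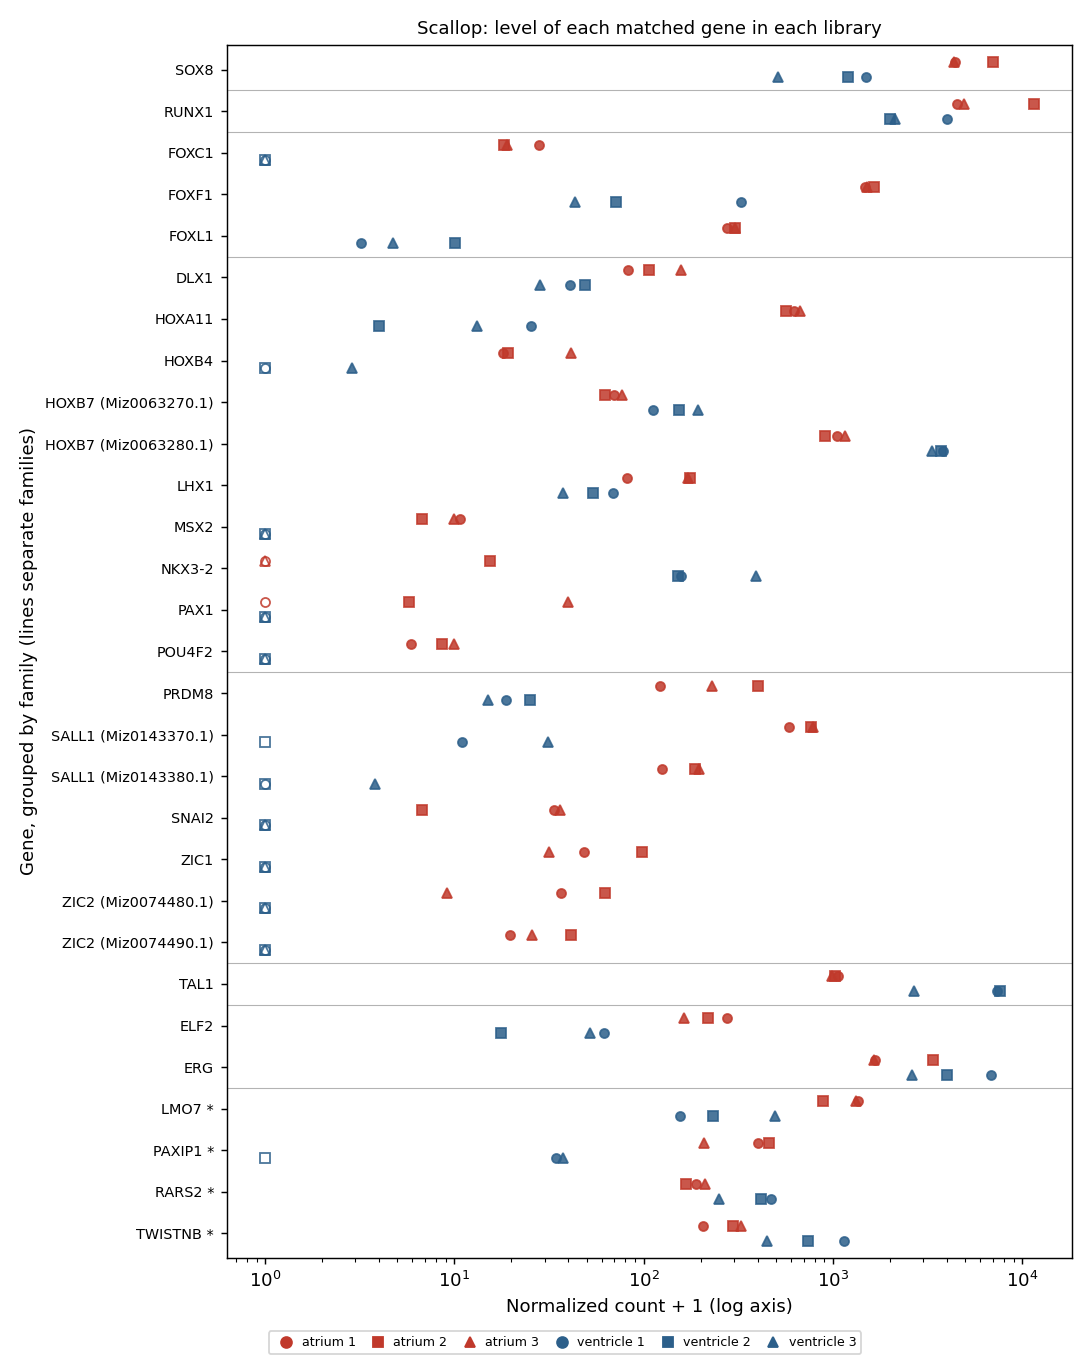
Normalized counts of the 29 matched scallop rows in every library, plus 1 and on a log axis, with 3 atria and 3 ventricles per row. Open symbols mark libraries with 0 reads and asterisks mark names that stand for no transcription factor. The SALL1, ZIC, FOXL1 and HOXA11 rows show 3 atria well above 3 ventricles, while NKX3-2, TAL1 and HOXB7 Miz0063280.1 show the opposite.

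SOX8 belongs to the SoxE group of high-mobility-group box factors, known in mice from neural crest, glia and gonad. It had 4392, 7032 and 4329 in atria, against 1499, 1199 and 510.5 in ventricles, with means of 5251 ± 1543 in atria and 1069 ± 507 in ventricles (SD, n = 3 each). Every atrium stood above every ventricle, and the log2 fold change was 2.39 ± 0.43 (SE; limma adjusted p = 0.00256).

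RUNX1 encodes a Runt-domain factor that starts definitive blood formation in mice. Its counts were 4495, 11519 and 4912 in atria, against 4010.1, 2003 and 2119 in ventricles. Atrium 2 was far above the other libraries, while atrium 1 exceeded ventricle 1 by little. For RUNX1 the log2 fold change was 1.30 ± 0.43 (SE; limma adjusted p = 0.0208), and it was 0.87 without atrium 2 (limma adjusted p = 0.0883) and 1.12 without ventricle 2 (limma adjusted p = 0.0653), so the call needed both libraries.

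All 3 forkhead rows of the scallop table were called higher in atria. FOXF1, a winged-helix factor of lateral plate and gut mesoderm in mice, had 1480.4, 1651 and 1501 in atria, against 325, 70.7 and 42.2 in ventricles. Ventricle 1 stood above the other 2 ventricles, and all 3 were far below the atria. Their means differed 10.6-fold and the log2 fold change was 3.94 ± 0.65 (SE; limma adjusted p = 0.00173), with 4.79 without ventricle 1 and 3.34 without ventricle 3. FOXL1, expressed in gut mesenchyme of mice, had 274, 302 and 301 in atria, against 2.21, 9.02 and 3.75 in ventricles. Its atria were tightly grouped, and their mean was 58.5-fold that of the ventricles, with a log2 fold change of 5.78 ± 0.63 (SE; limma adjusted p = 0.000218). FOXC1, a factor of paraxial mesoderm, vessels and the eye in mice, had 26.8, 17.2 and 17.8 in atria, against 0 in all 3 ventricles. It was at least 18.2-fold higher in atria (limma adjusted p = 0.00332), but with quantile normalization its adjusted p from limma was 0.0581.

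The 10 homeobox or paired-domain rows of the scallop ran both ways. HOXA11 and HOXB4 were called higher in atria and HOXB7 Miz0063280.1 higher in ventricles. HOXA11, a posterior HOX factor that patterns limb, kidney and uterus in mice, had 619.6, 559.7 and 668 in atria, against 24.3, 3.01 and 12.2 in ventricles. All 3 atria lay close together, at a mean 46.7-fold that of the ventricles. HOXA11 had a log2 fold change of 5.80 ± 0.68 (SE; limma adjusted p = 0.000297), with 6.40 without ventricle 1 and 5.07 without ventricle 2. HOXB4, a HOX factor of middle position known also from blood stem cells in mice, had 17.1, 18.1 and 40.1 in atria, against 0, 0 and 1.88 in ventricles. This was 94 reads over the atria against 2 over the ventricles, a ratio of normalized reads of 34.2 (exact 95% interval 9.20 to 286). The call (limma adjusted p = 0.00549) was lost with quantile normalization (limma adjusted p = 0.118).

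HOXB7, a HOX factor of the trunk in mice, stood on 2 rows, both higher in ventricles. HOXB7 Miz0063280.1 had 1043, 902 and 1155 in atria, against 3814, 3728 and 3341 in ventricles, and the groups lay far apart. HOXB7 Miz0063280.1 changed by -1.82 ± 0.29 (SE; limma adjusted p = 0.00164) on the log2 scale, but -0.59 after ribosomal rescaling (limma adjusted p = 0.202). HOXB7 Miz0063270.1 had 69.0, 61.1 and 75.8 in atria, against 111, 153 and 192 in ventricles. The groups did not overlap, but the log2 fold change of -1.11 ± 0.49 (SE; limma adjusted p = 0.0508) did not pass as deposited and turned to 0.11 after ribosomal rescaling (limma adjusted p = 0.943). It passed without ventricle 1, with -1.32 (limma adjusted p = 0.0451).

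NKX3-2, the counterpart of bagpipe, which marks visceral mesoderm in the fly and axial skeleton and stomach in mice, had 0, 14.3 and 0 in atria, against 157, 150.4 and 388 in ventricles. The gene was read in every ventricle and in atrium 2 but in neither atrium 1 nor atrium 3, with 15 reads over the atria against 656 over the ventricles. The mean in atria was 0.0206 times that in ventricles. On the log2 scale NKX3-2 changed by -6.40 ± 1.06 (SE; limma adjusted p = 0.00178), and it lay between -5.75 and -7.72 when 1 atrium was left out, the last of these without atrium 2.

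DLX1, a factor of forebrain interneurons and branchial arches in mice, had 82.0, 105 and 157 in atria, against 39.8, 48.1 and 27.2 in ventricles. The groups did not overlap and the log2 fold change was 1.54 ± 0.55 (SE; limma adjusted p = 0.0264). Leaving out any atrium ended the call, with 1.75 when atrium 1 was left out (limma adjusted p = 0.0589), 1.58 for atrium 2 (limma adjusted p = 0.0668) and 1.29 for atrium 3 (limma adjusted p = 0.113). Nor did DLX1 pass with quantile normalization (0.54, limma adjusted p = 0.371). LHX1, a LIM homeobox factor of the head organizer and of kidney in mice, had 80.4, 174 and 171 in atria, against 67.5, 52.6 and 36.6 in ventricles. Atrium 1 stood near the ventricles. The LHX1 log2 fold change of 1.38 ± 0.55 (SE; limma adjusted p = 0.0375) passed in 1 of the 6 fits that left out a library, and with quantile normalization it was 0.56 (limma adjusted p = 0.397).

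The 3 remaining homeobox or paired-domain rows were below the filter. PAX1, a paired-domain factor of sclerotome and thymus in mice, had 0, 4.78 and 38.7 in atria, against 0 in all 3 ventricles, with atrium 1 at 0 as well. Its 57 atrial reads were at least 13.8-fold more than the ventricles held, and most came from atrium 3. With no filter it was not called (limma adjusted p = 0.0574). MSX2, which acts in craniofacial and limb mesenchyme in mice, had 9.74, 5.73 and 8.92 in atria, against 0 in all 3 ventricles. That was 30 reads over the atria, at least 7.27-fold more. POU4F2, a POU-domain factor of retinal ganglion cells in mice, had 4.87, 7.64 and 8.92 in atria, against 0 in all 3 ventricles, which was 26 reads and at least 6.30-fold more. MSX2 and POU4F2 were read in all 3 atria and were called higher in atria with no filter.

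All 7 zinc finger rows of the scallop were called higher in atria. SALL1, a spalt-type factor that maintains kidney progenitors in mice, stood on 2 rows with consecutive identifiers. SALL1 Miz0143370.1 had 584, 760.3 and 785 in atria, against 9.96, 0 and 30.0 in ventricles, with none in ventricle 2. The atrial mean was 53.2-fold the ventricular mean and the log2 fold change was 6.66 ± 1.04 (SE; limma adjusted p = 0.00141), with 5.26 without ventricle 2 and 7.73 without ventricle 3. SALL1 Miz0143380.1 had 124, 186 and 194 in atria, against 0, 0 and 2.82 in ventricles. This was 609 reads over the atria against 3 over the ventricles, a ratio of normalized reads of 148 (exact 95% interval 50.3 to 718). SALL1 Miz0143380.1 had a log2 fold change of 6.73 ± 0.78 (SE; limma adjusted p = 0.000275), with 7.37 without ventricle 3.

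ZIC1 and ZIC2, neural plate and cerebellar factors in mice, were read in every atrium and in no ventricle. ZIC1 had 47.1, 96.5 and 30.5 in atria, against 0 in all 3 ventricles, with atrium 2 highest, and was at least 48.5-fold higher in atria (limma adjusted p = 0.00100). ZIC2 Miz0074480.1 had 35.7, 61.1 and 8.18 in atria, against 0 in all 3 ventricles and was at least 28.8-fold higher (limma adjusted p = 0.00405). ZIC2 Miz0074490.1 had 18.7, 40.1 and 24.5 in atria, against 0 in all 3 ventricles and was at least 23.8-fold higher (limma adjusted p = 0.00228). Atrium 3 was the lowest atrium for ZIC1 and for ZIC2 Miz0074480.1, but not for ZIC2 Miz0074490.1. The fitted log2 change of ZIC2 Miz0074480.1 was 4.78, with 4.20 without atrium 2 and 5.58 without atrium 3, and with quantile normalization it was not called (2.32, limma adjusted p = 0.0762).

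SNAI2, a repressor that releases cells from epithelia in vertebrate neural crest, had 32.5, 5.73 and 34.9 in atria, against 0 in all 3 ventricles. Atrium 2 was low, and the gene was at least 22.5-fold higher in atria (limma adjusted p = 0.00613). It was not called with quantile normalization (limma adjusted p = 0.120), and its fitted log2 change was 5.12 without atrium 2, against 4.33 with all libraries. PRDM8, a SET-domain repressor that acts in neural circuit formation in mice, had 120.2, 402 and 227 in atria, against 17.7, 24.1 and 14.1 in ventricles. The lowest atrium was above every ventricle by a wide margin, although the atria themselves varied over 3-fold. PRDM8 changed by 3.54 ± 0.61 (SE; limma adjusted p = 0.00203) on the log2 scale.

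TAL1 was called higher in ventricles, as were NKX3-2 and HOXB7 Miz0063280.1. This basic helix-loop-helix factor, needed for blood and endothelial fate in mice, had 1061, 1027 and 989 in atria, against 7335, 7638 and 2661 in ventricles. Its means were 1026 ± 36.0 in atria and 5878 ± 2790.0 in ventricles (SD, n = 3 each), the atria were nearly equal, and ventricle 3 was lower than the other ventricles. TAL1 changed by -2.37 ± 0.42 (SE; limma adjusted p = 0.00231) on the log2 scale.

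The ETS rows of the scallop differed in direction. ELF2, an ETS factor of lymphoid cells in mice, had 274, 217 and 162 in atria, against 60.8, 16.5 and 50.7 in ventricles, a log2 fold change of 2.48 ± 0.61 (SE; limma adjusted p = 0.00837). ERG, an ETS factor of endothelium and blood stem cells in mice, had 1655, 3375 and 1652 in atria, against 6803, 3979 and 2616 in ventricles. Atrium 2 exceeded ventricle 3, so the chambers overlapped. ERG, with a log2 fold change of -0.98 ± 0.43 (SE; limma adjusted p = 0.049), stayed under 2-fold. It was 0.25 after ribosomal rescaling (limma adjusted p = 0.643), and it passed without atrium 2 (-1.32, limma adjusted p = 0.0475) and without ventricle 3 (-1.31, limma adjusted p = 0.0162).

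The 4 scallop rows that name no factor ran both ways. LMO7, a LIM and PDZ domain protein of cell junctions, had 1350.5, 879.7 and 1318 in atria, against 155, 232 and 491 in ventricles, a log2 fold change of 2.15 ± 0.46 (SE; limma adjusted p = 0.00533). PAXIP1, a BRCT-domain protein of DNA damage signalling and histone methylation, had 399, 456 and 207 in atria, against 33.2, 0 and 36.6 in ventricles. PAXIP1 changed by 4.95 ± 1.20 (SE; limma adjusted p = 0.00825) on the log2 scale, with 3.23 without ventricle 2, the library at 0, 5.78 without ventricle 1 and 5.85 without ventricle 3. TWISTNB, a subunit of RNA polymerase I, had 204, 293 and 324 in atria, against 1141, 735 and 449 in ventricles. Its log2 fold change of -1.42 ± 0.44 (SE; limma adjusted p = 0.017) was lost when atrium 1 (limma adjusted p = 0.0658) or ventricle 1 (limma adjusted p = 0.0534) was left out, with TMM (-0.93, under 2-fold) or after ribosomal rescaling (-0.20, limma adjusted p = 0.782). RARS2, the mitochondrial arginyl-tRNA synthetase, had 188, 166 and 209.6 in atria, against 468, 414 and 248 in ventricles. RARS2, with a log2 fold change of -0.95 ± 0.42 (SE; limma adjusted p = 0.0515), did not pass, was 0.27 after ribosomal rescaling (limma adjusted p = 0.689), and was -1.23 without ventricle 3 (limma adjusted p = 0.00790).

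**Figure D2:**
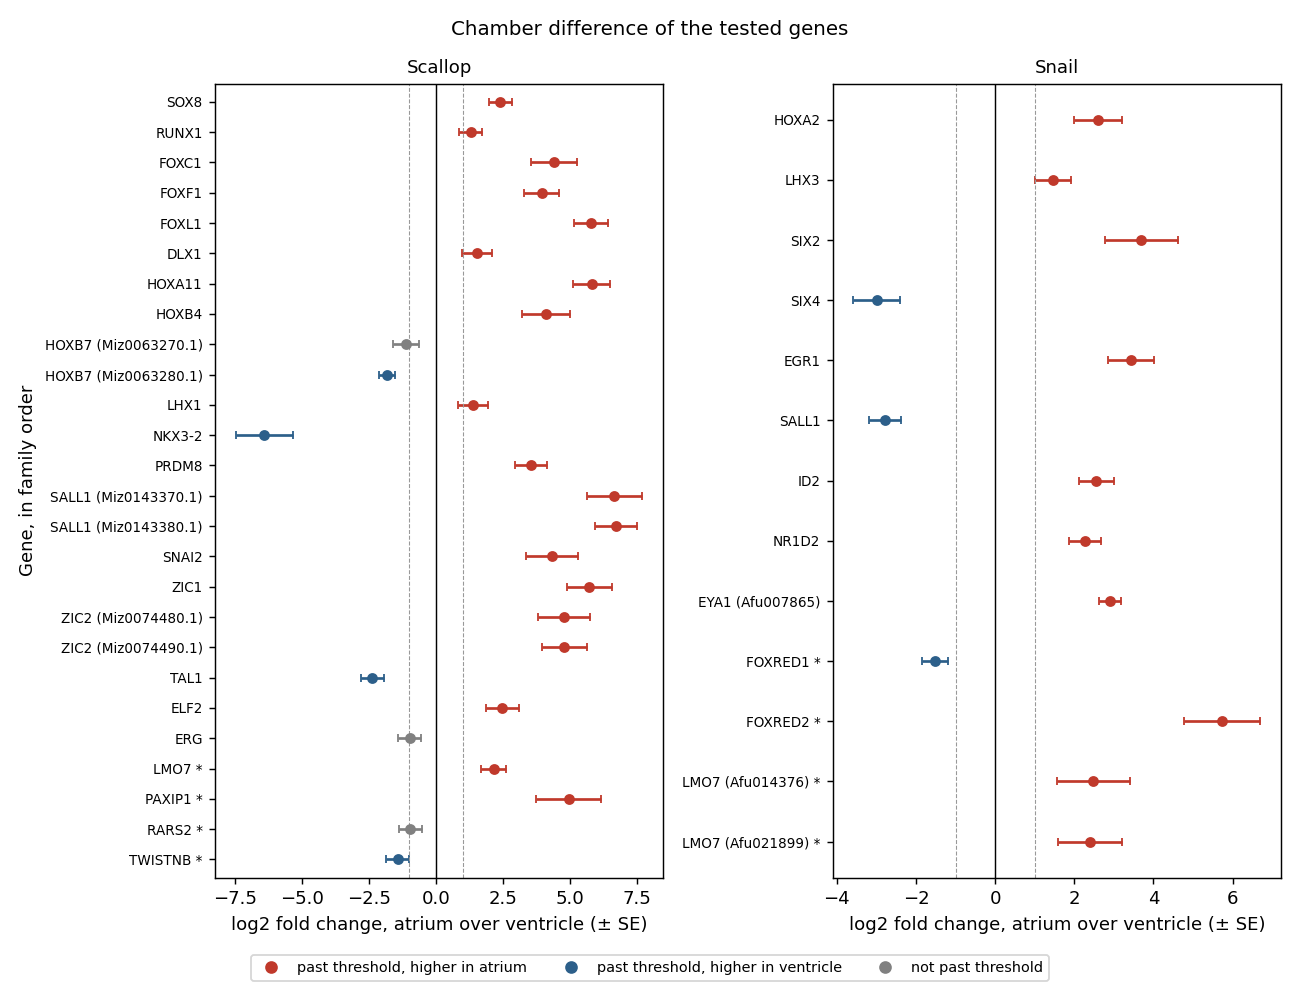
Log2 fold change of the tested rows, atrium over ventricle, with its standard error, for the scallop (26 rows) and the snail (13 of 14 rows), from limma on log2(normalized count + 1). Positive values mean higher in atria. Most rows lie to the right of 0, and NKX3-2 in the scallop and SIX4 and SALL1 in the snail lie farthest to the left.

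In the snail, too, most listed factors were higher in atria, but so was most of the table. Of 17 factor rows, 13 had every atrium above every ventricle and 3 had every ventricle above, against 51.6% and 34.4% of all 1886 rows. RUNX1 overlapped. Of the 10 factors that passed the filter, 8 were called higher in atria and 2, SALL1 and SIX4, higher in ventricles. The background over 1489 tested rows was 46.9% called higher in atria and 37% higher in ventricles. With all 21 matched rows, 14 were tested, of which 11 were called higher in atria and 3 higher in ventricles. With no filter, 13 factors were called higher in atria and 3 higher in ventricles, against 52.3% and 32.2% of all rows. The atrial mean was the higher on 16 of the 21 matched rows, against 62.8% of all rows. Both edgeR and DESeq2 called 11 of the 14 tested rows higher in atria and 3 higher in ventricles, against 50.4% and 38.4% of all tested rows with edgeR and 53.1% and 39.1% with DESeq2. The authors' deposited table gives 11 of the 21 matched rows as higher in atria and 4 as higher in ventricles at an adjusted p under 0.05, against 38.9% and 28.6% of all rows. The median log2 fold change was 2.41 over the 10 tested factors and 1.22 over all tested rows. With quantile normalization the 2 medians were 1.20 and 0.23, and 4 matched rows were called higher in atria and 3 higher in ventricles. Atrial calls made up 55.9% of all snail calls as deposited, 59.5% with TMM and 34.5% with quantile normalization. No ventricular read was found for 4 of the 17 factors, TWIST2 and RARA among them, against 11.6% of all rows, and none lacked reads in all 3 atria, against 1.01%.

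**Figure D3:**
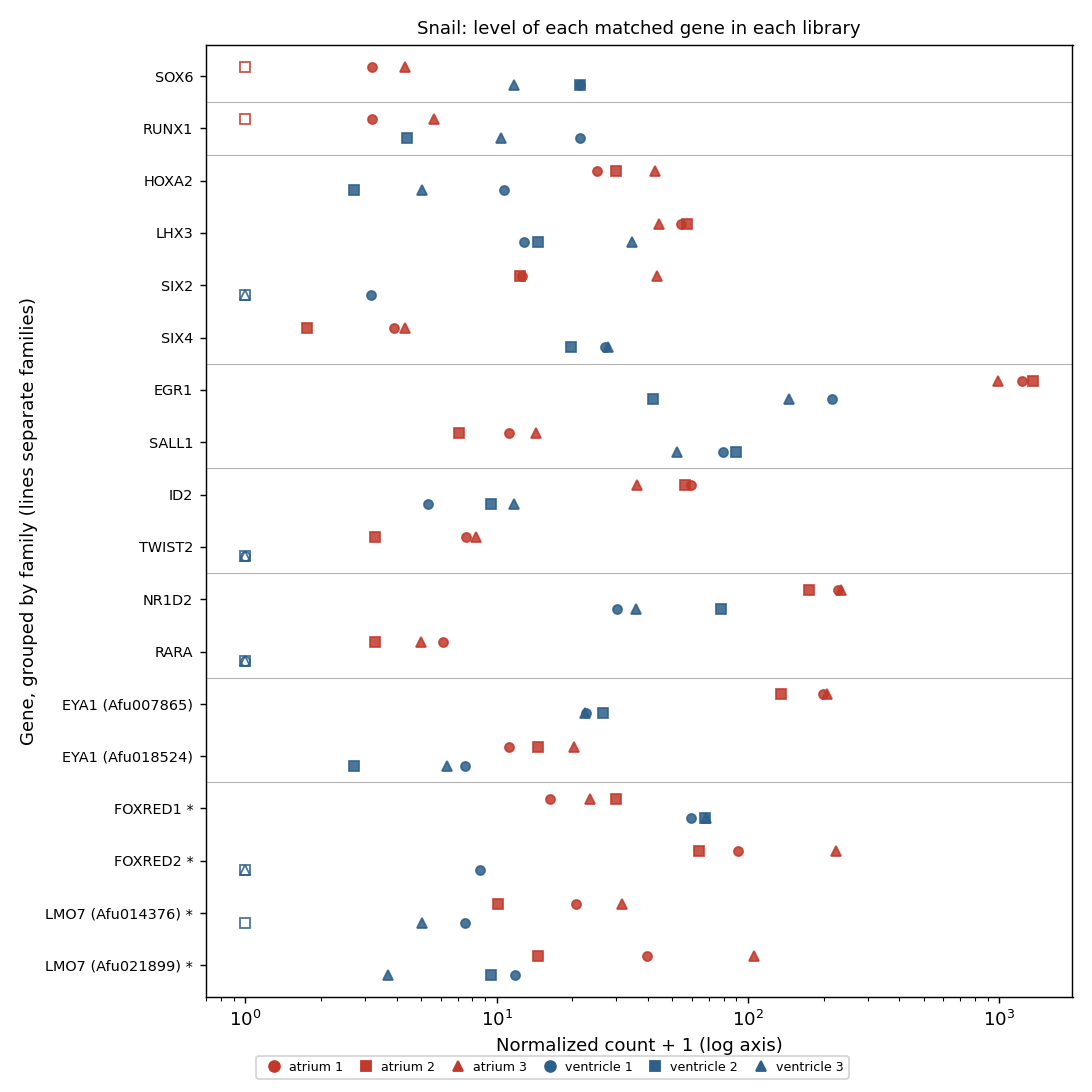
Normalized counts of 18 of the 21 matched snail rows in every library, plus 1 and on a log axis, with 3 atria and 3 ventricles per row. Open symbols mark libraries with 0 reads and asterisks mark names that stand for no transcription factor. EGR1 and EYA1 Afu007865 show 3 atria above 3 ventricles, and SALL1 and SIX4 show the opposite.

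The cofactor EYA1 works with sine oculis factors such as SIX2 and SIX4, which bind DNA, and EYA1 adds transactivation and phosphatase activity. EYA1 Afu007865 had 198, 135 and 206 in atria, against 21.6, 25.6 and 21.5 in ventricles. Both groups were tight, at means of 179.6 ± 38.9 in atria and 22.9 ± 2.35 in ventricles (SD, n = 3 each), a 7.84-fold difference. EYA1 Afu007865 had a log2 fold change of 2.90 ± 0.28 (SE; limma adjusted p = 0.000615). EYA1 Afu018524, below the filter, had 10.2, 13.6 and 19.3 in atria, against 6.48, 1.71 and 5.37 in ventricles, or 61 reads over the atria against 11 over the ventricles, in the same direction.

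Of its DNA-binding partners, SIX2 and SIX4 were listed and went opposite ways. SIX2, which keeps nephron progenitors undifferentiated in mice, had 11.7, 11.4 and 42.5 in atria, against 2.16, 0 and 0 in ventricles. This was 95 reads over the atria, most from atrium 3, against 2 over the ventricles, a ratio of normalized reads of 25.6 (exact 95% interval 6.88 to 214). SIX2 changed by 3.69 ± 0.92 (SE; limma adjusted p = 0.0106) on the log2 scale, with 3.09 without atrium 3, and it was not called with quantile normalization (1.58, limma adjusted p = 0.175). SIX4, which acts in muscle and sense organs of mice, had 2.92, 0.758 and 3.32 in atria, against 25.9, 18.8 and 26.9 in ventricles. Its groups were well apart at low levels, with a log2 fold change of -2.99 ± 0.59 (SE; limma adjusted p = 0.00501).

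The HOX and LIM homeobox rows of the snail were low and higher in atria. HOXA2, which patterns hindbrain and branchial arches in mice, had 24.1, 28.8 and 41.9 in atria, against 9.72, 1.71 and 4.03 in ventricles. HOXA2 changed by 2.59 ± 0.61 (SE; limma adjusted p = 0.00885) on the log2 scale, and 1.05 with quantile normalization (limma adjusted p = 0.167). LHX3, a factor of pituitary and motor neurons in mice, had 53.3, 56.1 and 43.2 in atria, against 11.9, 13.7 and 33.6 in ventricles. Ventricle 3 stood near the atria. For LHX3, a log2 fold change of 1.46 ± 0.44 (SE; limma adjusted p = 0.0206) was no longer called when the fit lacked atrium 1 (limma adjusted p = 0.0584), ventricle 1 (limma adjusted p = 0.0616) or ventricle 2 (limma adjusted p = 0.0585), nor with quantile normalization (0.49, limma adjusted p = 0.451).

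EGR1, an immediate early zinc finger factor induced by growth factors in many tissues, had 1228, 1364 and 991 in atria, against 216, 41.0 and 145 in ventricles. Every atrium was several times above the highest ventricle. EGR1 changed by 3.43 ± 0.58 (SE; limma adjusted p = 0.00299) on the log2 scale, with 2.73 without ventricle 2, the lowest. SALL1 ran the other way in the snail, with 10.2, 6.07 and 13.3 in atria, against 78.8, 88.8 and 51.1 in ventricles. Its mean in atria was 0.135 times that in ventricles, and the log2 fold change was -2.79 ± 0.41 (SE; limma adjusted p = 0.0019).

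ID2, a helix-loop-helix protein without a DNA-binding region that blocks other factors of its class, had 58.4, 55.4 and 35.2 in atria, against 4.32, 8.54 and 10.7 in ventricles. ID2 changed by 2.56 ± 0.44 (SE; limma adjusted p = 0.00319) on the log2 scale, and with quantile normalization it was not called (1.35, limma adjusted p = 0.0698). NR1D2, the nuclear receptor REV-ERB beta, a repressor in the circadian clock, had 228, 174 and 234 in atria, against 29.2, 76.9 and 34.9 in ventricles. Its groups were clearly apart, with a log2 fold change of 2.27 ± 0.40 (SE; limma adjusted p = 0.00339).

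Other snail factors below the filter rest on few reads. SOX6, a SoxD factor that promotes fast muscle and cartilage in mice, had 2.19, 0 and 3.32 in atria, against 20.5, 20.5 and 10.7 in ventricles, or 8 reads over the atria against 39 over the ventricles. RUNX1 had 2.19, 0 and 4.65 in atria, against 20.5, 3.42 and 9.41 in ventricles, or 10 reads against 28. Its chambers overlapped, and with no filter its log2 fold change was -1.93 (limma adjusted p = 0.0672). TWIST2, a mesenchymal repressor of muscle and bone differentiation in mice, had 6.57, 2.27 and 7.31 in atria, against 0 in all 3 ventricles, 23 reads and at least 4.12-fold more. RARA, a retinoic acid receptor, had 5.11, 2.27 and 3.99 in atria, against 0 in all 3 ventricles, 16 reads and at least 2.87-fold more. Retinoic acid promotes atrial identity in vertebrate hearts, and the snail value of this receptor rests on those 16 reads.

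The snail rows that name no factor also passed. FOXRED1, an assembly factor of respiratory complex I, was higher in ventricles, with 15.3, 28.8 and 22.6 in atria, against 58.3, 66.6 and 67.2 in ventricles, and its log2 fold change was -1.52 ± 0.32 (SE; limma adjusted p = 0.00626). FOXRED2, a protein of the endoplasmic reticulum that helps degrade misfolded proteins, had 90.5, 62.9 and 223 in atria, against 7.56, 0 and 0 in ventricles. It was read in 1 of 3 ventricles, and the log2 fold change of 5.74 ± 0.96 (SE; limma adjusted p = 0.00291) became 6.77 without ventricle 1. LMO7 Afu021899 had 38.7, 13.6 and 105 in atria, against 10.8, 8.54 and 2.69 in ventricles, a log2 fold change of 2.40 ± 0.81 (SE; limma adjusted p = 0.0291). LMO7 Afu014376 had 19.7, 9.10 and 30.6 in atria, against 6.48, 0 and 4.03 in ventricles, a log2 fold change of 2.49 ± 0.93 (SE; limma adjusted p = 0.0395). Atrium 3 was the highest library of both LMO7 rows. LMO7 Afu021899 was 3.12 without atrium 2 and 1.69 without atrium 3, and LMO7 Afu014376 was 1.61 without ventricle 2. Each passed in 2 of the 6 fits that left out a library, and neither was called with quantile normalization (limma adjusted p = 0.211 and 0.471).

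Only SALL1, RUNX1 and LMO7 among the matched symbols stood in both tables. Symbols are not orthology calls, and for repeated symbols the copy with the highest mean was used. SALL1 had a log2 fold change of 6.66 in the scallop and -2.79 in the snail. The species difference, scallop minus snail, was 9.45 ± 1.31 (SE; limma interaction adjusted p = 0.00011) over 328 symbols tested, of which 23.5% passed. Without scallop ventricle 2, where this SALL1 copy had no read, the difference was 8.04. All 3 scallop atria were above all 3 ventricles and all 3 snail atria below all 3 ventricles, so in these tables the 2 species carried this name on opposite sides. LMO7 differed by -0.25 ± 0.97 (limma interaction adjusted p = 0.949) and changed sign under several alternatives, which does not show equal changes. RUNX1 could be compared only with no filter on low values. There the log2 fold change was 1.30 in the scallop and -1.93 in the snail, and the difference was 3.23 ± 0.96 (limma interaction adjusted p = 0.0227), with 24.3% of 382 symbols passing. The snail side of RUNX1 rests on 38 reads.

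**Figure D4:**
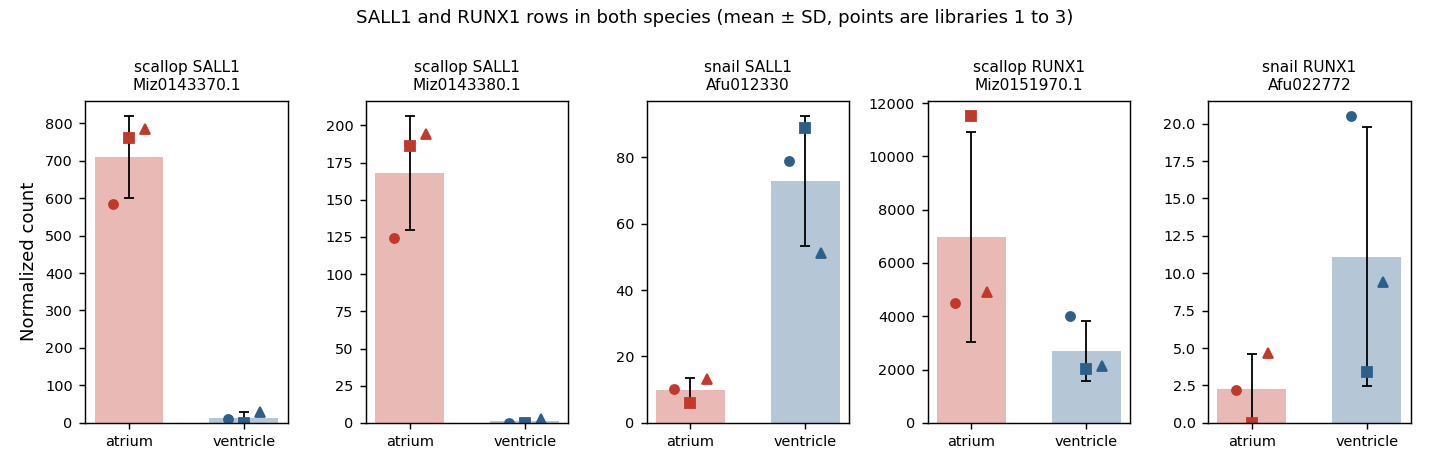
Normalized counts (linear axes, each panel with its own range) of both scallop SALL1 rows, the snail SALL1 row and the RUNX1 row of each species, with bars for the mean of 3 libraries, error bars for the SD and points for the libraries, atria left of ventricles. SALL1 is higher in atria of the scallop and in ventricles of the snail, and the snail RUNX1 libraries overlap, at 0 to 4.65 in atria and 3.42 to 20.5 in ventricles.

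**Figure D5:**
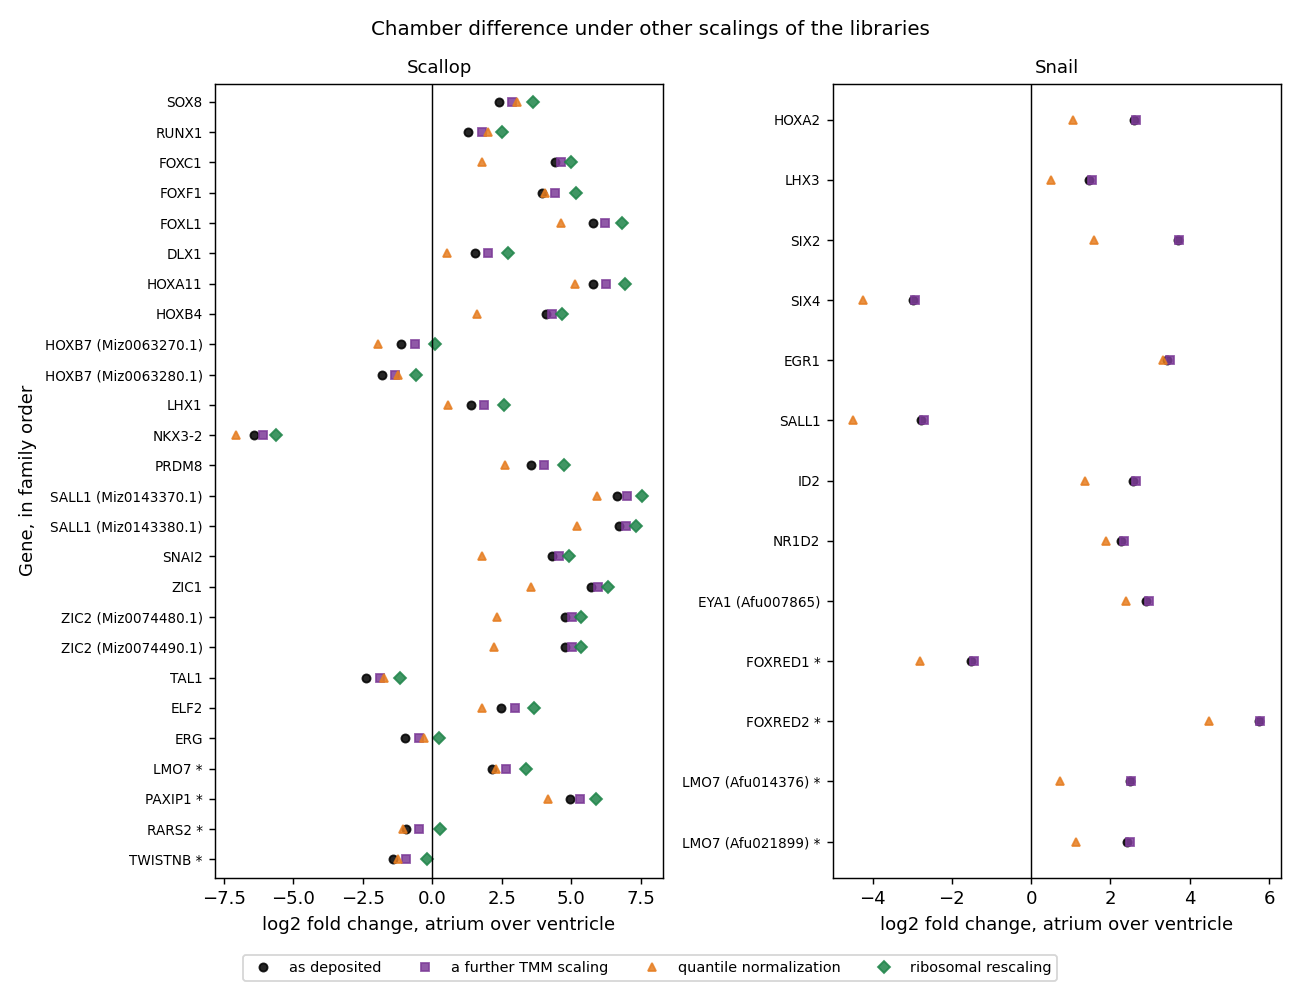
Log2 fold change, atrium over ventricle, of the tested rows (26 scallop, 13 of 14 snail) as deposited and after TMM, quantile and, in the scallop, ribosomal scaling, in family order; asterisks mark names that stand for no transcription factor. In the scallop HOXB7 Miz0063270.1, ERG and RARS2 cross 0 with ribosomal rescaling, and in the snail the rows drawn keep their side of 0.

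Libraries within a chamber did not contribute alike. Among the 22 matched scallop rows with a higher atrial mean, atrium 2 was the highest library in 10, or 45.5%, against 41.1% of the 2016 such rows in the table. Among the 16 snail rows, atrium 3 was the highest in 10, or 62.5%, against 52.1% of 1184. Of the 2179 scallop rows in the table with a higher ventricular mean, ventricle 3 was the highest library in 7.99%. Ventricle 1 was the highest in 51.1% and ventricle 2 in 40.9%. Among the 7 matched rows of this kind ventricle 3 was the highest in 2. Ventricle 3 lay toward the atria for some of these matched rows, and its low share over the table shows that this is not particular to them. On the log2(normalized count + 1) scale, its position between the mean of the other 2 ventricles and the atrial mean was 75.7% of the way for ERG, 67.1% for RARS2, 58.2% for TWISTNB and 52.0% for TAL1. It was 9.32% for HOXB7 Miz0063280.1, -22.3% for NKX3-2 and -60.8% for HOXB7 Miz0063270.1. For the 14 tested scallop rows higher in atria that had a ventricular read, the position ran between -72.0% for SOX8 and 52.5% for LMO7, with a median of 1.04%.

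Known partners of the factors, such as DACH and Vestigial-like cofactors, were listed on 3 scallop rows and no snail row. DACH1, the corepressor that joins sine oculis and EYA proteins in the fly and in mice, had 600.9, 433.6 and 501.7 in atria, against 2652, 2081 and 1420 in ventricles. It was called higher in ventricles, at -1.97 ± 0.36 on the log2 scale (SE; limma adjusted p = 0.00261). PKNOX2, a homeobox partner of HOX proteins, was not called (1.19, limma adjusted p = 0.0785), and VGLL2, a TEAD cofactor of muscle, was below the filter. Of 26 other transcription factors listed in the scallop, 17 were called higher in atria, 5 higher in ventricles and 4 not. Over all tested scallop rows, 42% were called higher in atria and 45.6% higher in ventricles. The median log2 fold change was 1.16 over these factors, against -1.01 over all tested rows. In the snail 11 were listed and 9 tested, of which 8 were called higher in atria and 1 higher in ventricles. Over all tested snail rows these shares were 46.9% and 37%. The median was 1.60, against 1.22 over all tested rows.

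Markers of several cell types also differed between chambers. Over all tested rows, 42% were called higher in atria and 45.6% in ventricles in the scallop, and 46.9% and 37% in the snail. In the muscle list, 8 of 12 scallop rows were called higher in ventricles and 4 in atria, and every one was read in every library. The ventricular calls were rows named TNNI1, TNNT2, Tm2, MYL6, ACTBL2 and ACTB, and the atrial calls were MYLK, ACT1 and RYR2 rows. The summed normalized count of the list was 763000 to 913005 in scallop atria and 1257370 to 2379120 in scallop ventricles. ACTB Miz0185270.1 alone had 390005 to 544065 in atria and 706115 to 1365970 in ventricles. In the snail 4 of 6 rows of the muscle list were called higher in ventricles and none in atria, with sums of 20554 to 24301 in atria and 62090 to 151774 in ventricles. Those called were Tm2, TNNT2, TNNI2 and ACTB Afu006397, while ACTB Afu018940 and ACTB Afu018558 were not called. In the hemocyte and immune list, 9 of 12 scallop rows were called higher in atria and 2 in ventricles. The sums were 38630 to 46164 in atria and 13069 to 18973 in ventricles. Most of these atrial calls were rows named HMCN1, PXDN and Mco1, which need not come from hemocytes. Of the other rows, C5 and TLR1 were called higher in atria and TLR3 and C1QL2 in ventricles. In the snail 11 of 13 tested rows were called higher in atria and none in ventricles, with sums of 544 to 1710 in atria and 127 to 190 in ventricles, and 5 of the 15 listed had no ventricular read. Atrium 3 of the snail was the highest in that sum, as it was for SIX2 and LMO7.

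In the neuron list, 6 of 7 scallop rows were called higher in atria and none in ventricles, with sums of 2013 to 2533 in atria and 731 to 1909 in ventricles. Those called were PCSK1 and the synaptotagmin-type names SYT1, SYT7, SYT15, SYT16 and SYTL5. CHAT was not called (-0.92, limma adjusted p = 0.160), with 201, 160 and 260 in atria, against 246, 217 and 1073 in ventricles. In the snail 4 of 7 tested rows were called higher in atria and 2 higher in ventricles, with sums of 611 to 969 in atria and 403 to 594 in ventricles. Podocyte and nephridial genes were called higher in atria on 7 of 9 tested scallop rows and in ventricles on 1, although LRP2 made their sum lower in atria (5195 to 7669) than in ventricles (11182 to 28199). In the snail 2 of 6 tested rows were called, both higher in atria, and their sums were 555, 63.7 and 1583 in the 3 atria and 72.6 to 154 in ventricles. Cilia genes were called higher in atria on all 8 tested scallop rows, with sums of 2305 to 2481 in atria and 389 to 1146 in ventricles. The snail listed 3 cilia rows, of which 1 was tested and called higher in ventricles, with sums of 16.6 to 24.3 in atria and 17.1 to 21.5 in ventricles. The germline list held SYCP1 in the scallop, which was not called, and no snail row. In both species most rows of the hemocyte and immune, podocyte and nephridial, and neuron lists had their higher mean in atria, as most factors did. So did all 9 cilia rows of the scallop and 2 of 3 in the snail. Over all listed rows the atrial mean was the higher on 48.1% in the scallop and 62.8% in the snail. Most rows of the muscle list had their higher mean in ventricles. The part of any cell type in the values of SOX8, RUNX1, SALL1, ZIC1, EYA1 or any other factor was not tested.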

How the data were processed

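Poly-T selected mRNA of atria and ventricles was sequenced, 3 libraries per chamber and species. DESeq2 1.20.0, StringTie 1.3.3b, HISAT2 2.0.5 and featureCounts 1.5.0 are named per the submitters' processing notes, without roles. Genome build, annotation and strand setting are not given in the sources used here. The authors deposited, for rows they had selected, a signal per library that is a count divided by a size factor: in each library 100% of values were whole multiples of the worth of 1 read, with a tolerance of 0.01 read. Per the file headers, the authors also deposited a log2 fold change, which runs ventricle over atrium, its standard error, a test score and p-values.

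Here, log2(normalized count + 1) was tested with limma 3.58.1 (R 4.3.3), mean-variance trend and Benjamini-Hochberg adjustment over all rows averaging 10 or more in the 6 libraries. This scale can understate the change of low genes, and it can overstate the change where 1 library is at 0. SALL1 Miz0143370.1, with none in ventricle 2, was 6.66 with limma and 5.68 with DESeq2 on the recovered reads. The design named edgeR for raw counts; since the deposited values were normalized, limma was used, and edgeR 4.0.16 and DESeq2 1.42.0 on the recovered reads were alternatives, calling 1392 and 1619 scallop rows higher in atria, 1915 and 2049 higher in ventricles, and in the snail 750 and 791 against 572 and 582. The limma fit of chamber within each species was tested on simulated counts. The species interaction, edgeR, DESeq2 and replicate block fits were not. Species were compared over shared symbols by the interaction term of species and chamber in limma. Further alternatives were TMM, quantile and ribosomal scalings, other pseudocounts (0.5 and 5) and filters, the authors' adjusted p, a replicate block and leaving out each library. Members and gene lists were chosen with earlier results of these data known. The results of 3 matched snail rows are not reported here; they stay in the counts. Every other matched row is named, with its values.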

Additional observations from a re-analysis of the deposited data

Results flagged for a closer look

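Among the matched symbols only SALL1 and LMO7 were past the filter in both tables, and the test of a species difference passed for SALL1. Of all 328 symbols tested, 23.5% passed. All rows had been selected as at least 2-fold different within their species, so rows on opposite sides had to lie far apart. The SALL1 log2 fold change, atrium over ventricle, was 6.66 in the scallop and -2.79 in the snail. The difference of 9.45 ± 1.31 (SE, scallop minus snail) had a limma interaction adjusted p of 0.00011. The difference was 8.04 without scallop ventricle 2, the library where the SALL1 copy used had no read. All 3 scallop atria were above all 3 scallop ventricles, and all 3 snail atria were below all 3 snail ventricles. Whether the scallop and snail rows are orthologs was not tested. Groups of 3 libraries are too small for a test of outlying libraries.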

How the results depend on the processing

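As deposited, 19 scallop rows were called higher in atria and 4 in ventricles, 11 and 3 in the snail, and 77 symbols differed between species. Ribosomal rescaling left 2 scallop ventricular calls and DESeq2 made 7. Quantile normalization and a minimum mean of 50 each left 4 snail atrial calls. That minimum left 4 snail rows to test, none of them higher in ventricles, so 0 ventricular calls, and 39 species differences. Leaving out 1 library gave 16 to 19 atrial and 3 to 6 ventricular calls in the scallop, 7 to 11 and 3 in the snail, and 68 to 90 species differences; the snail gave 7 without atrium 1 and without ventricle 2. Direction turned for HOXB7 Miz0063270.1 (0.11), RARS2 (0.27) and ERG (0.25) with ribosomal rescaling. The ribosomal rows used as its reference had themselves been selected as different between chambers. The species difference of LMO7 (-0.25) was 0.16 with TMM, 1.18 with quantile normalization and 0.21 with a pseudocount of 5, and -0.97 to 0.46 when 1 library was left out. The cause was not tested. Of 39 tested rows, 21 kept their direction and side of the threshold under every alternative run. Ribosomal rescaling was not run in the snail, whose table lists 0 ribosomal rows.

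Correlations of same-numbered libraries were -0.16 to -0.12 in the scallop and -0.09 to 0.06 in the snail, so there is no sign in these values that the numbers pair the libraries, and whether they do is not known. A replicate block gave 17 and 4 calls in the scallop, 9 and 3 in the snail, and 78 species differences. DLX1 (limma adjusted p = 0.0618), LHX1 (0.0767) and snail LMO7 Afu021899 (0.0533) were among the calls it ended. Genes with few reads, such as RARA, TWIST2 and RUNX1 in the snail, are limited by depth.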

Other observations

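Several matched rows carried consecutive identifiers. In the scallop these were FOXC1 with FOXL1, ZIC1 with ZIC2 and ZIC2 with its other copy, the SALL1 copies and the HOXB7 copies, 5 pairs in all. All 5 pairs had their higher mean in the same chamber, the HOXB7 pair in ventricles and the others in atria. Over the whole scallop table, 67.7% of 793 scallop pairs with consecutive identifiers had their higher mean in the same chamber. Genome positions were not used here, so whether such rows are neighbouring genes, or parts of 1 gene, was not tested.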
